A study of Mus musculus with 12 samples.

Results

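The turn that gene expression took around day 2 was measured in mouse embryonic stem (ES) cells sampled at day 0, day 2 and day 4 of a time course. For each gene the log2 change from day 2 to day 4 was set against the log2 change from day 0 to day 2, and the second minus the first is called the bend here: a bend above 0 means that the course turned upward after day 2, and a bend below 0 that it turned downward. The contrast used 9 of the 12 RNA-seq libraries of the series, 3 at each of the 3 days, and the 3 libraries of day 6 entered only the estimate of spread. It was computed for every gene with enough counts, 16468 of the 55335 in the deposited table. The contrast itself selects no gene.

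All libraries came from 1 line, labelled mESC, with polyadenylated RNA as the template. Growth is described in the same words for every library: ES cell medium with KnockOut Serum Replacement and the cytokine LIF, on gelatin with irradiated mouse embryonic fibroblasts as feeder cells. No agent, gene change or change of medium is named for any day, so the groups are given here by their day alone. Nothing in the labels says that the 3 libraries of a day came from separate cultures, so the p-values speak only of how far these libraries differ, a spread that may be technical. In bulk RNA, fewer cells of a type and less RNA per cell cannot be told apart, which holds for every level below.

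ES cells keep their state through a network of transcription factors around Pou5f1, Sox2 and Nanog, and LIF feeds it through the kinase-coupled factor STAT3. When that network gives way, cells pass through a brief formative state before they take up lineage programs. Retinoic acid is a vitamin A derivative that drives such an exit: it binds RAR and RXR receptors on DNA repeats of the type shown next, and switches on early targets such as its own degrading enzymes and the Hox genes, which set position along the body axis. A course through several days can mix genes that answer at once and stop, genes that answer and reverse, and genes that start late.

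The 4 tested genes whose promoter held a direct repeat of the receptor half-site with 5 bases between (GTTCANNNNNAGTTCA, searched on both strands) were 0.035% of the 11405 tested genes with a RefSeq promoter, read from 250 bases before to 50 after the gene start. Among them were Cyp26a1, which encodes an enzyme that degrades retinoic acid, and Rarb, which encodes a retinoic acid receptor. Both rose by day 2 and then turned in different ways, so their sequences are shown, 5′ to 3′ on the strand of the gene, with the repeat in capitals. They come from RefSeq on GRCm38.p6: chr19:37697746-37697807 on the plus strand, 62 bases, where the repeat reads on the opposite strand, and chr14:16575483-16575558 on the minus strand, 76 bases.
Cyp26a1: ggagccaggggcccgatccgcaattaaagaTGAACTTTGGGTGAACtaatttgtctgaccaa
Rarb: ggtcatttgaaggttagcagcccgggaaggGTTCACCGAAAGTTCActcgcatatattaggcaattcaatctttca
The 2 other genes with the repeat in this window were Blvrb, an enzyme of haem breakdown whose fall levelled off, and Lcorl, a nuclear factor whose rise levelled off. A match is a run of letters and says nothing of binding in these cells.

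A called bend was common, though its share depended on the settings, and it takes in courses that slowed or sped up without reversing. The bend was called in 8770 genes, 53.3% of those tested, at a Benjamini-Hochberg adjusted p under 0.05 in edgeR's quasi-likelihood test. It was upward in 4097 (24.9%) and downward in 4673 (28.4%). A bend of at least 1 on the log2 scale, which is a 2-fold difference between the steps, was upward in 1770 genes (10.7%) and downward in 1814 (11.0%). With libraries scaled by their total alone, the split was 3237 upward and 5810 downward, and that scaling moved the bend of the median gene by -0.14. Fewer were called with DESeq2, 3561 upward and 3801 downward, and at an adjusted p under 0.01, 3183 and 3710. Without day 2 replicate 1 the counts were 3632 and 4153.

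The first 2 days held more change than the next 2. From day 0 to day 2, 34.9% of tested genes rose and 33.2% fell, and from day 2 to day 4, 25.3% rose and 24.8% fell. Of the 11216 genes that changed in the first step, 7298 bent against the direction of that step. Both steps and the bend share the day 2 libraries, so an error at day 2 moves all of them together, and none is support for another.

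Genes were sorted by which of the 3 tests they passed. Peaked genes rose and then fell (1300, 7.89%), and dipped genes fell and then rose (1103, 6.70%). Levelled genes changed by day 2, bent back, and had no called second step: 1839 rises (11.2%) and 1765 falls (10.7%). Slowed genes went on in the same direction by less, with 731 rises (4.44%) and 560 falls (3.40%). Sped-up genes went on by more, with 110 rises (0.668%) and 148 falls (0.899%). Late genes had no called first step, with 540 rises (3.28%) and 621 falls (3.77%). Steady courses without a called bend numbered 1030 rises and 1024 falls, and 5644 genes showed no turn by these tests. Of these 5644, 537 had a fitted bend of at least 1 in size that was not called. A second step that was not called is not shown to be 0: its 95% interval lay within 0.32 of 0 on the log2 scale in 980 of the 1839 levelled rises and 827 of the 1765 levelled falls.

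**Figure D1:**
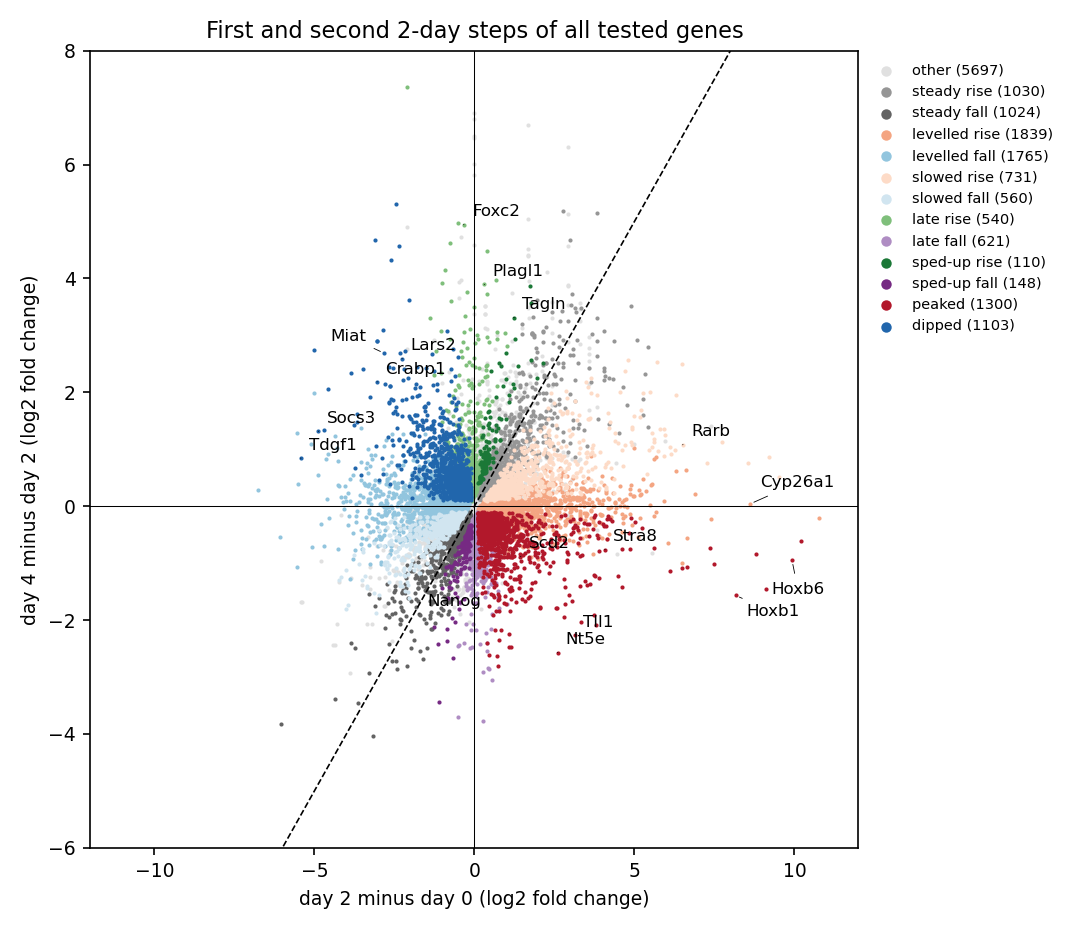
Each point is 1 of the 16468 tested genes, with its log2 fold change from day 0 to day 2 on the horizontal axis and from day 2 to day 4 on the vertical axis, coloured by class with the number of genes in brackets; "other" holds genes with no called turn or with a called bend alone. The dashed line marks equal steps: points above it bent upward and points below it downward, and the long arm to the right holds Cyp26a1, Rarb and the Hoxb genes, far below the line.

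Total counts per library, to 6 digits, ran from 8083420 to 9483950 at day 0, 10590500 to 12786900 at day 2 and 6945900 to 10160400 at day 4. Levels are given as CPM, counts scaled to a common TMM-adjusted library size, which do not correct for gene length, so they compare days and not genes. The first principal component of the 9 libraries held 77.1% of the variance and the second 12.9%, with day 2 at one end of the second. The ES cell markers Pou5f1, Sox2, Nanog, Zfp42 and Esrrb were all present at day 0, at means from 276 to 1468 CPM. Fibroblast markers are given below, beside the collagens. The blood marker Ptprc had no count in any library. Pecam1, which ES cells share with endothelium, had means of 241, 149 and 72.03 CPM. The endothelial marker Cdh5 had means of 1.26, 2.72 and 10.5 CPM at the 3 days.

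Genes of cholesterol synthesis peaked at day 2. Of 24 tested members 17 peaked, 22 bent downward and 1 upward, with a median bend of -1.25 against -0.03 over all tested genes. The shares of all tested genes were 7.89% peaked, 28.4% bent downward and 24.9% upward. Genes named from a list, here and below, were mostly those with the smallest p of the bend among its members. They are extremes of the list and not typical members. Hmgcs1, which makes the HMG-CoA that enters the pathway, was measured at 145, 135 and 139 CPM at day 0, 254, 259.6 and 241 at day 2 and 112, 107 and 114 at day 4. The day 2 libraries were the highest, those of day 4 the lowest, and no 2 days overlapped. The first step was 0.85 ± 0.05 and the second -1.18 ± 0.05 (log2 ± SE), and the bend was -2.03 (adjusted p = 9.5e-24). Hmgcs1 ended below day 0, with a log2 difference of day 4 from day 0 of -0.33 ± 0.05.

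Enzymes that build and desaturate fatty acids took the same course in most members. Of 15 tested members 9 peaked, 11 bent downward and 1 upward, against 7.89%, 28.4% and 24.9% of all tested genes. The median bend was -0.83. Scd2, a desaturase that makes monounsaturated fatty acids, was measured at 205, 202 and 198 CPM at day 0, 541, 539.9 and 561 at day 2 and 286, 303 and 299 at day 4. Its day 2 libraries were all above 500 CPM and stood clear of both other days, and the bend was -2.33 ± 0.07 (adjusted p = 1.1e-26). Scd2 stayed above day 0 at day 4, with a log2 difference of 0.55 ± 0.04, while its paralog Scd1 ended below, with -0.37 ± 0.07. Scd1 had means of 54.8, 106 and 42.5 CPM. Fads1, which desaturates polyunsaturated fatty acids, had means of 65.3, 128 and 75.6 CPM. Elovl6, an elongase, had no called first step and then fell, at 158, 156 and 158 CPM at day 0, 168, 165 and 172 at day 2 and 71.4, 61 and 63.5 at day 4. With libraries scaled by total alone, and with no filter, Elovl6 was called as peaked, from a first step of 0.10 (adjusted p = 0.0847 in the TMM fit).

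Sterol and fatty acid genes share the transcription factor family SREBP, whose sites include the sterol regulatory element TCACNCCAC. This element was searched after the values had been seen, on both strands. It stood in the promoter of 1.43% of the tested genes with a promoter, in 11 of the 913 peaked genes with one (1.21%), and in 1 of 16 cholesterol genes. That gene was Hmgcs1, shown because its course is given above, with the element in capitals, from RefSeq on GRCm38.p6, chr13:119690184-119690252 on the plus strand, 69 bases.
Hmgcs1: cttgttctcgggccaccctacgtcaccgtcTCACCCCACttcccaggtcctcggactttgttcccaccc
The other promoters of the list did not hold these letters in this window.

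The proteasome, which degrades tagged proteins, held another peaked group, with smaller steps. Of 29 tested subunits 10 peaked, 15 bent downward and 3 upward, against 7.89%, 28.4% and 24.9% of all tested genes. The median bend was -0.20. Psmb1, a core subunit, was measured at 119, 122 and 129 CPM at day 0, 177, 175 and 181 at day 2 and 143, 134 and 139.7 at day 4. Its day 2 libraries were the highest and did not overlap the other days, and the bend was -0.89 ± 0.08 (adjusted p = 1.1e-12). Psmb6, a catalytic subunit, had means of 125, 175 and 133 CPM. Psmd7, in the regulatory cap, did the opposite and dipped, with means of 856, 573 and 646 CPM.

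Among peaked genes that reached 5 CPM with no overlap between the libraries of the days of each step, 8 were taken by the size of their smaller step. Tll1, a metalloprotease that activates BMP signals, was measured at 2.15, 2.1 and 3.04 CPM at day 0, 20.8, 21.6 and 21.9 at day 2 and 4.84, 4.42 and 3.97 at day 4. Its 3 day 2 libraries were all above 20 CPM and all others under 5. The gene (GRCm38 chr8:64014931-64206271) had steps of 3.14 ± 0.15 and -2.26 ± 0.12 (log2 ± SE). Nt5e, the cell surface enzyme that makes adenosine from AMP, went from 1.13, 1.05 and 0.89 CPM through 6.59, 6.11 and 6.09 to 0.77, 1.15 and 1.28, and its libraries of days 0 and 4 overlapped. Grb10, an imprinted adaptor that restrains insulin signalling, had means of 3.17, 22.1 and 6.83 CPM, and Bhmt, a methyltransferase that remakes methionine, 3.17, 18.9 and 5.43 CPM. Plk3, a stress-responsive kinase, had means of 10.1, 33.8 and 11.3 CPM, and its levels at day 0 and day 4 overlapped. Asb4, Gap43 and Pgbd5 completed the 8, with bends of -4.71, -4.54 and -4.33.

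Formative genes, which mark the passage out of the naive state, mostly bent downward. Of 14 tested members 9 bent downward, 1 bent upward and 3 peaked, against 28.4%, 24.9% and 7.89% of all tested genes. The median bend was -1.0. Dnmt3a, a DNA methyltransferase that sets new methylation, was measured at 206, 211 and 198 CPM at day 0, 354, 340.4 and 360.5 at day 2 and 184, 191 and 191 at day 4. The day 2 libraries were all above 300 CPM and those of the other days under 220 CPM, and the bend was -1.68 ± 0.07 (adjusted p = 7.4e-22). Its paralog Dnmt3b had no called first step and then fell, at 115, 113 and 105 CPM at day 0, 116, 103 and 116 at day 2 and 63.3, 57.7 and 60.3 at day 4, with libraries of days 0 and 2 overlapping and day 4 below both. With libraries scaled by total alone Dnmt3b was called as peaked. Zic2, a zinc finger factor, had means of 4.51, 9.67 and 4.09 CPM and peaked. From the lists of Nodal and of FGF and ERK genes, Lefty1, a secreted inhibitor of Nodal signals, peaked with means of 4.49, 10.6 and 4.33 CPM, and Dusp6, a phosphatase that shuts off ERK, with 34.6, 53.9 and 28.02 CPM. Otx2, a homeobox factor of the formative state, fell throughout, with means of 26.5, 4.21 and 1.04 CPM, and its bend of 0.72 was not called (adjusted p = 0.154).

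**Figure D2:**
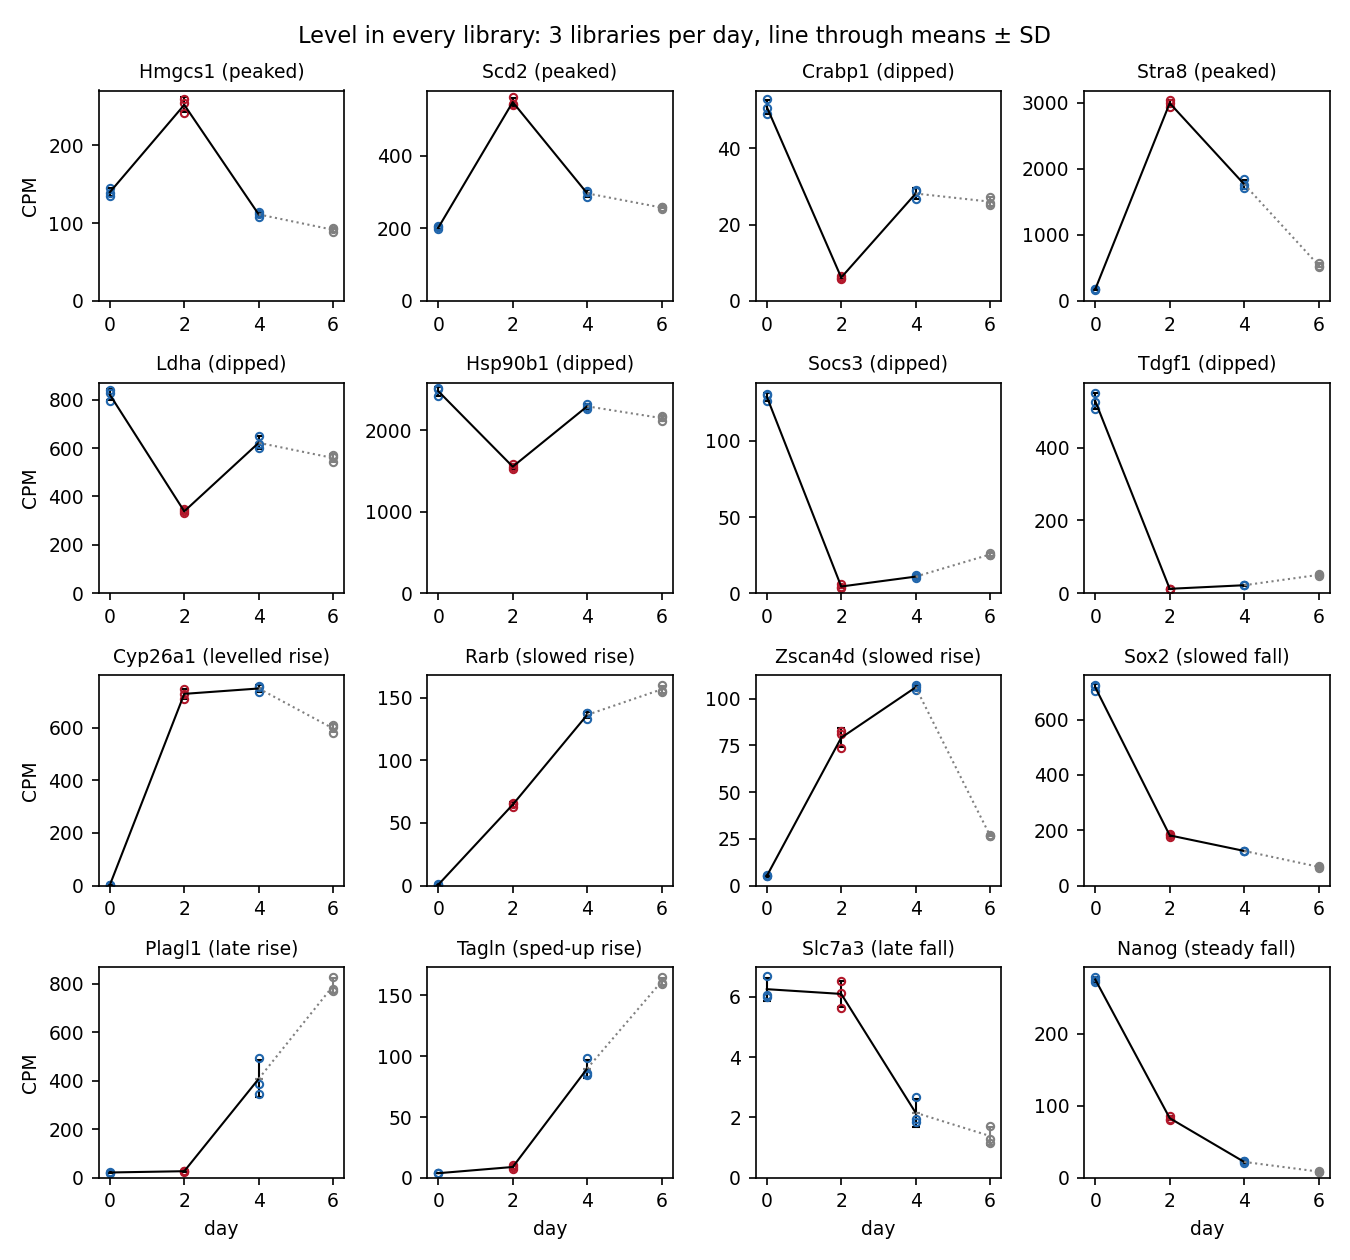
Level in CPM (vertical axes, each from 0) at days 0, 2, 4 and 6 (horizontal axes) for 16 genes, with 1 open circle per library, the line through the means and bars of 1 SD, n = 3 per day; day 2 is red and day 6, which the contrast does not use, is grey with a dotted line. Hmgcs1, Scd2 and Stra8 stand highest at day 2, Ldha, Hsp90b1, Crabp1, Socs3 and Tdgf1 turn upward after it, Cyp26a1 levels off, and Plagl1 and Tagln rise mainly after day 2.

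Glycolysis and hypoxia genes mostly fell and then turned upward. Of 27 tested members 23 fell by day 2 and 2 rose. Then 22 bent upward and 2 downward, against 24.9% and 28.4% of all tested genes, with a median bend of 1.10. After day 2, 10 members dipped, with a second step called upward, and 9 levelled off after a fall, against 6.70% and 10.7% of all tested genes. Ldha, which turns pyruvate into lactate, was measured at 794, 839 and 828 CPM at day 0, 330.3, 338 and 347 at day 2 and 599, 615 and 651 at day 4. Day 2 was the lowest, day 4 lay between, and no 2 days overlapped. The bend was 2.15 ± 0.08 (adjusted p = 6.0e-24), and 68.6% of the log2 fall was regained by day 4. Pfkl, a phosphofructokinase that commits sugar to glycolysis, went from a mean of 347 through 159.6 to 303 CPM. Its paralog Pfkp went on falling, at means of 426, 75.5 and 65.7 CPM, and slowed, with a bend of 2.29. Hk2, a hexokinase, had means of 203, 52.2 and 57.6 CPM. Its second step of 0.14 was called in the 12-library fit but lost with DESeq2, with no filter, with thinned counts, at an adjusted p under 0.01, and without either of day 2 replicates 1 and 3 or day 4 replicates 2 and 3.

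Chaperones of the endoplasmic reticulum, the arm of the unfolded protein response that builds folding capacity, also dipped. Of 18 tested members 9 dipped, 12 bent upward and 4 downward, against 6.70%, 24.9% and 28.4% of all tested genes. The median bend was 0.41, and 14 members rose in the second step while none fell. Hsp90b1, the main HSP90 of this compartment, was measured at 2512, 2417 and 2504 CPM at day 0, 1551, 1587 and 1519.5 at day 2 and 2290.0, 2326 and 2262 at day 4. The day 2 libraries were the lowest by a wide gap, and at day 4 the difference from day 0 was -0.11 ± 0.04 (log2 ± SE). Manf, a secreted stress factor, overshot, with means of 106, 76.7 and 132 CPM. Sdf2l1, a partner of the chaperone BiP, had means of 28.4, 9.3 and 14.8 CPM, and the disulfide isomerase Pdia6 859.7, 672 and 923 CPM. Among cytosolic heat shock genes 5 of 14 dipped, 7 bent upward and 2 downward, Hspa8 with means of 3859.6, 2548 and 3352 CPM.

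Integrated stress response genes, which raise amino acid supply under the factor ATF4, turned the other way. In 23 of 24 tested members the second step was a fall and in none a rise. In the first step 7 rose and 11 fell. The bend was downward in 19 and upward in 1, against 28.4% and 24.9% of all tested genes, with a median of -0.58. By class 7 members peaked, 7 sped up their fall and 5 fell late, against 7.89%, 0.899% and 3.77% of all tested genes. Atf4 was measured at 149, 159 and 157 CPM at day 0, 232, 234 and 229 at day 2 and 147, 149.7 and 155 at day 4. Day 2 stood alone at the top and the libraries of days 0 and 4 overlapped, with a bend of -1.20 ± 0.07 (adjusted p = 8.7e-17). Atf5, a relative of Atf4, had means of 12.97, 42.3 and 27.8 CPM, and Aldh1l2, a mitochondrial folate enzyme, 7.81, 11.6 and 3.88 CPM. Slc7a3, an arginine transporter, had 5.99, 6.7 and 6.07 CPM at day 0, 6.14, 6.51 and 5.64 at day 2 and 1.94, 2.69 and 1.85 at day 4: days 0 and 2 overlapped and day 4 was lower in every library.

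ATF4 and C/EBP factors bind the element TGATGNAAT, which was searched after the values had been seen, on both strands. It stood in 0.596% of the promoters of tested genes and in 3 of 18 promoters of this list, of which the sequences follow because the 3 genes fell after day 2 from different first steps. The element is in capitals and reads on the opposite strand in each. They come from RefSeq on GRCm38.p6: Gars, chr6:55037940-55038000 on the plus strand, 61 bases, Aars, chr8:111033699-111033767 on the plus strand, 69 bases, and Nupr1, chr7:126625543-126625611 on the minus strand, 69 bases.
Gars: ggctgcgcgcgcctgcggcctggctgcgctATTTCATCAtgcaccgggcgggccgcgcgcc
Aars: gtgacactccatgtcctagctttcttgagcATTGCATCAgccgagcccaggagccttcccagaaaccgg
Nupr1: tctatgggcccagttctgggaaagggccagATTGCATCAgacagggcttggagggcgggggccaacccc
Aars and Nupr1 were named for this element after their values had been seen. Gars, the glycyl-tRNA synthetase, was measured at 335, 336 and 359 CPM at day 0, 382, 389 and 371 at day 2 and 225, 219 and 239 at day 4. It was slightly higher at day 2 than at day 0 in every library and then lower at day 4 than at either. Aars, the alanyl-tRNA synthetase, had means of 722, 661 and 407 CPM, with steps of -0.13 ± 0.04 and -0.70 ± 0.04 (log2 ± SE). Nupr1, a small stress-induced nuclear protein, had means of 17.6, 10.8 and 2.67 CPM, with steps of -0.71 ± 0.12 and -1.96 ± 0.18.

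LIF and STAT3 targets fell steeply and then stopped or turned. All but 1 of the 14 tested members fell by day 2. Then 12 bent upward and 1 downward, against 24.9% and 28.4% of all tested genes, with a median bend of 1.91. Of these 5 dipped and 6 levelled off. Socs3, the feedback inhibitor that STAT3 switches on, was measured at 126, 131 and 130.1 CPM at day 0, 4.17, 3.3 and 5.82 at day 2 and 11.8, 9.89 and 11.1 at day 4. The day 2 libraries were the lowest, day 4 was above them in every library, and both were far below day 0. The fall was -4.88 ± 0.09 and the rise after it 1.32 ± 0.14 (log2 ± SE), so 27.0% of the log2 fall was regained. Lifr, the LIF receptor, came back most of the way, at 67.2, 61.8 and 67.2 CPM at day 0, 27.2, 28.4 and 23.9 at day 2 and 61.8, 55.4 and 55.2 at day 4. The highest day 4 library came close to the lowest of day 0 without overlap, and day 2 lay far below both. Junb, a subunit of the AP-1 factor, had means of 19.96, 5.05 and 14.7 CPM, and Icam1, an adhesion molecule, stayed low at 106, 12.6 and 14.7 CPM, with a second step of 0.20 ± 0.11 that was not called (adjusted p = 0.130) but was without day 4 replicate 1.

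Immediate early genes, which answer growth signals within minutes, dipped in 6 of 15 tested members, against 6.70% of all tested genes. Of the 15, 10 bent upward and 4 downward, against 24.9% and 28.4% of all tested genes, with a median bend of 1.5. Egr1, a zinc finger factor, was measured at 4.29, 3.15 and 6.45 CPM at day 0, 2.96, 2.49 and 2.91 at day 2 and 14.9, 14.2 and 15.9 at day 4, so that day 4 was above every earlier library. Its first step was not called without day 0 replicate 3. Jund went the other way and peaked, with means of 138, 209 and 146 CPM. Of 9 tested Notch pathway genes 7 bent upward and 2 downward, with a median bend of 1.13. Hes1, the main Notch target, was measured at 24.2, 29.01 and 25.7 CPM at day 0, 13.6, 14.6 and 10.6 at day 2 and 25.2, 26.7 and 23 at day 4. Day 2 stood below both other days, which overlapped, and the bend was 1.95 ± 0.17 (adjusted p = 3.3e-12). The ligand Jag2 had means of 58.3, 22.3 and 28.8 CPM, and the receptor Notch3 levelled off at 70.4, 34.4 and 31.2 CPM.

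Other large dips came from single genes, 8 of them taken by the size of the smaller step as for the peaks. Tdgf1, kept whatever its values and not among the 8, the co-receptor of Nodal, was measured at 526, 506 and 551 CPM at day 0, 12.05, 12.9 and 11.7 at day 2 and 21.9, 21.3 and 22.9 at day 4. It lost nearly all of its level by day 2, and each day 4 library was above each day 2 library, with a second step of 0.84 ± 0.08 (adjusted p = 5.4e-11). Mycn, a MYC family factor of ES cells, went from 213, 211 and 218 CPM through 38.7, 42.8 and 44.5 to 96.8, 89.4 and 96.7, and its bend was 3.52 ± 0.10. Crabp1, a retinoic acid binding protein, had 52.8, 49.1 and 50.6 CPM at day 0, 6.67, 6.11 and 5.64 at day 2 and 28.8, 26.6 and 28.96 at day 4, with no overlap between days. Miat, a long noncoding RNA, had means of 8.02, 1.11 and 7.3 CPM, and the libraries of days 0 and 4 overlapped. Smarcd3, a BAF complex subunit, had means of 10.5, 3.04 and 11.7 CPM, and Cyp2s1, a cytochrome P450, 19.7, 3.63 and 12.3 CPM. B3gnt3, Neurod1 and Sned1, among the 8, had day 2 means of 0.28, 0.39 and 1.31 CPM, where few counts stand behind the level. Krt19, a keratin of simple epithelia, dipped slightly and then overshot, at 17.6, 19.2 and 15.9 CPM at day 0, 13.1, 11.5 and 12.3 at day 2 and 78.02, 73.4 and 74.96 at day 4, which put day 4 far above every earlier library.

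Mitochondrially encoded transcripts were lower at day 2 in 7 of 13 tested genes and higher in 1. The bend was upward in 9 and downward in none, against 24.9% and 28.4% of all tested genes, with a median of 0.79. The catalytic oxidase subunit mt-Co1 had 4943, 4705 and 4776 CPM at day 0, 2707, 2779 and 2779 at day 2 and 6990.4, 6350.0 and 6486 at day 4. The share of all counts from mitochondrially encoded genes was 1.61% at day 0, 1.43% at day 2 and 2.43% at day 4. Lars2, the mitochondrial leucyl-tRNA synthetase, was another of the 8 dips, at 294, 315 and 297 CPM at day 0, 60.2, 66.7 and 61.8 at day 2 and 413, 335 and 390.4 at day 4. Over the same days the share of Gm42418, a model that lies over a ribosomal RNA repeat, was 1.43%, 0.332% and 1.54%. The part of these shares in the dips was not tested for these 2 groups. Leaving Gm42418 and the mitochondrial genes out of the fit bears on the scaling alone, and moved the bend of the median gene by 0.0017. It kept 1096 of the 1103 dipped genes in that class, and the mitochondrial genes left out, 5 of them dipped, cannot count as kept.

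Retinoic acid genes mostly rose by day 2 and then bent downward on the log2 scale. Of 13 tested genes of its synthesis, transport and degradation 11 rose by day 2 and 2 fell, then 8 bent downward and 2 upward, with a median bend of -3.52, and the 13 include 1 sped-up and 2 steady rises. Of 17 tested receptors and targets 12 rose and 3 fell, then 14 bent downward and none upward, with a median of -2.36. The shares of all tested genes were 28.4% downward and 24.9% upward. Cyp26a1 (GRCm38 chr19:37697798-37701536) was measured at 2.49, 1.31 and 1.65 CPM at day 0, 729, 709 and 746 at day 2 and 752, 759 and 734 at day 4. The last 2 days overlapped, and the second step was 0.04 ± 0.04 (log2 ± SE), after a first of 8.61 ± 0.09. Its paralog Cyp26b1 kept rising, at 0.57, 1.18 and 0.51 CPM at day 0, 161, 154 and 169 at day 2 and 362, 341 and 348 at day 4, with no overlap between days and a second step of 1.12 ± 0.05, a slowing on the log2 scale but a larger gain in CPM than before day 2. Rarb (GRCm38 chr14:16430839-16819156) was at 1.13, 0.26 and 0.63 CPM at day 0, 65.9, 62.5 and 65.3 at day 2 and 138, 138 and 133 at day 4, again higher on each day than on the one before, with a second step of 1.08 ± 0.05 and likewise a larger gain in CPM after day 2.

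The 2 proteins that carry retinoic acid in the cell took opposite courses. Crabp2, which delivers retinoic acid to the nucleus, peaked, at 14.8, 15.2 and 15.6 CPM at day 0, 374, 392 and 337 at day 2 and 138, 139 and 136 at day 4, and was chosen after its values had been seen to stand beside Crabp1. Crabp2 was highest at day 2 and Crabp1 lowest, and both kept a called difference from day 0 at day 4, of 3.18 and -0.86. Dhrs3, which turns retinal back to retinol, levelled off at 4.38, 79.4 and 77.5 CPM. Among targets, Stra8, the gatekeeper of meiosis, was measured at 184, 177 and 172 CPM at day 0, 2941, 3036 and 2999.5 at day 2 and 1709, 1843 and 1747 at day 4. Its day 2 libraries were the highest and day 4 remained far above day 0, with a bend of -4.84 ± 0.08 (adjusted p = 2.8e-36). Tshz1, a zinc finger factor, had means of 4.08, 67.8 and 53.9 CPM, and the Hox cofactors Meis1 and Meis2, which are on the mesoderm list, slowed on the log2 scale, with means of 3.49, 39.6 and 75.97 CPM and of 21.5, 152 and 219 CPM. The gain of Meis1 in CPM was about the same in both steps.

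Hox genes divided within 1 cluster. In groups 1 to 4, the anterior ones, 11 of 12 tested genes rose by day 2 and none fell, and 9 bent downward and 1 upward, with a median bend of -3.36. In groups 5 to 13, 16 of 23 rose, 4 fell, and 14 bent downward and 2 upward. Their median was -1.90, the same with the 2 genes that had no count on a day set at the floor. Among all tested genes 28.4% bent downward and 24.9% upward. Hoxb1, the first of its cluster, had 0.11, 0 and 0.13 CPM at day 0, 27.7, 28.1 and 25.1 at day 2 and 7.16, 10.6 and 9.8 at day 4. It had 2 counts in all at day 0, which gives a CPM ratio of day 2 to day 0 of 329.6 (95% counting interval 91 to 2725), and each day 4 library was below each day 2 library, with a second step of -1.57 ± 0.12. Hoxb3, of the same cluster, did the opposite after day 2 and rose by 0.75 ± 0.08, at 0, 0 and 0.13 CPM at day 0, 19.7, 20.5 and 19.8 at day 2 and 32.9, 32.8 and 35.9 at day 4. Hoxb2 and Hoxb6 peaked, with second steps of -0.83 and -0.95, and Hoxb8 too (-0.61). Hoxb5 had no count at day 0 and was at least 175-fold higher at day 2, against a floor of 3 counts over the day 0 libraries. It then levelled off, with 19.9, 22.3 and 22.7 CPM at day 2 and 20.9, 17.4 and 17.5 at day 4, and was called as peaked without day 2 replicate 1 or day 4 replicate 1. Hoxb5os, annotated antisense to it, slowed, but whether counting used the strand is not given in the sources used here, so reads of the pair cannot be told apart.

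Genes switched on at the 2-cell stage of the embryo rose by day 2 in nearly all members, and fewer changed after it. Of 22 tested members 21 rose by day 2 and 1 fell. The bend was downward in 21 and upward in 1, against 28.4% and 24.9% of all tested genes, with a median of -3.60. After day 2, 11 levelled off, 7 peaked and 3 slowed, against 11.2%, 7.89% and 4.44% of all tested genes. Zscan4d was measured at 4.86, 4.99 and 5.44 CPM at day 0, 81.01, 82.9 and 73.4 at day 2 and 105, 106 and 107 at day 4, with each day above the one before and a bend of -3.54 ± 0.12 (adjusted p = 1.2e-24). Zscan4b levelled off at means of 2.24, 47.96 and 44.8 CPM, and Usp17le, a deubiquitinase, peaked at 4.2, 50.6 and 40.5 CPM. The Zscan4 and Usp17l genes are near-identical copies, and how reads were split between them is not given in the sources used here, so their single courses are uncertain.

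Extraembryonic endoderm genes, which build the yolk sac lining, slowed more often than they stopped, on the log2 scale. All 20 tested members rose by day 2, and 15 of the 20 rose again by day 4 and 2 fell. The bend was downward in 15 and upward in none, against 28.4% and 24.9% of all tested genes, with a median of -1.67. By class 10 were slowed rises, 5 steady rises, 3 levelled rises and 2 peaked. The summed level of the list ran from 2278 to 2343 CPM at day 0, 6393 to 6449 at day 2 and 13113.6 to 13312.5 at day 4. In summed CPM the gain was thus larger after day 2 than before it. A sum is weighted toward the members with the most counts and need not hold for each. Of the endoderm genes named next, Cubn, Dab2, Lamb1 and Gata6 gained less CPM after day 2 than before, and Foxa2 more. Cubn, an endocytic receptor, was measured at 19.3, 19.2 and 19.5 CPM at day 0, 191, 180.5 and 201 at day 2 and 297, 282 and 295 at day 4. Every day was above the one before, and the step shrank from 3.30 ± 0.06 to 0.61 ± 0.04 (log2 ± SE). Its adaptor Dab2 had means of 59.2, 367 and 536 CPM, and the laminin chain Lamb1 239, 788 and 1048 CPM. Gata6, the factor that starts this lineage, levelled off at 16.2, 18.2 and 18.98 CPM at day 0, 72.4, 67.4 and 73.7 at day 2 and 67.3, 71.9 and 71.5 at day 4, with days 2 and 4 overlapping, and Foxa2, another factor of endoderm, slowed at 0.87, 11.1 and 22.3 CPM. Peg3, an imprinted zinc finger gene, belonged to the slowed rises as well, with means of 75.6, 479.7 and 1522 CPM; its gain in CPM was larger after day 2 than before, so the slowing holds on the log2 scale alone.

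That difference of scale fell mostly on slowed rises. Of the 8770 called bends, 174 (1.98%) had the opposite sign when the same contrast was taken on mean CPM, all of them downward on the log2 scale. Of these 153 were among the 731 slowed rises and 20 among the 148 sped-up falls. Of the genes described here they include Rarb, Cyp26b1, Meis1, Foxa2 and Peg3, whose slowing holds on the log2 scale alone, and Prph, whose speeding up does too.

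**Figure D3:**
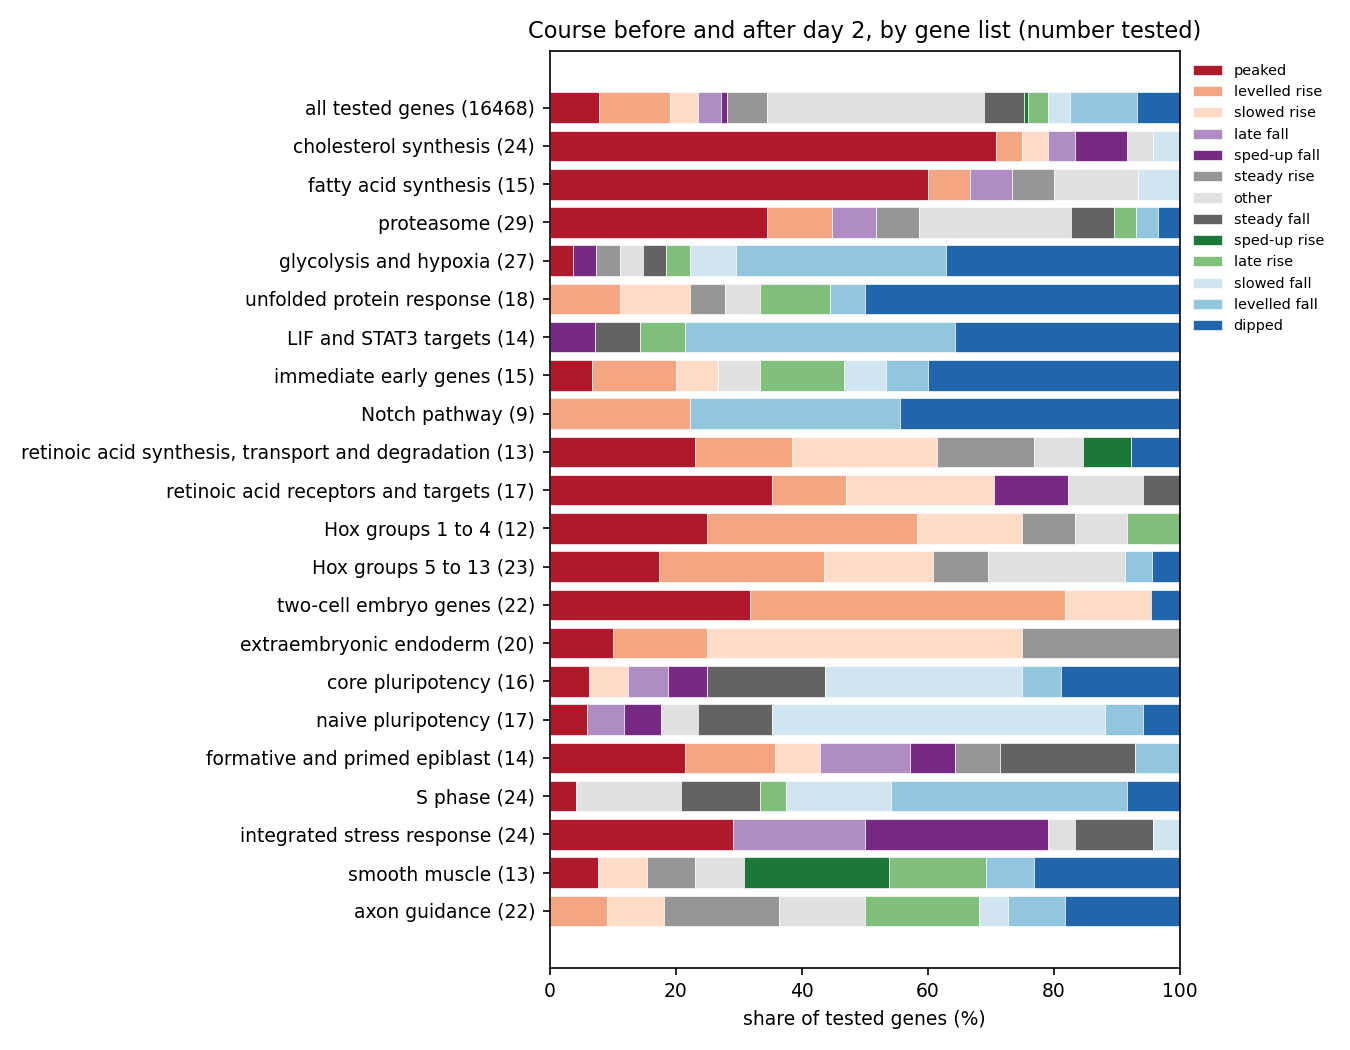
Each bar gives the share, in percent of tested members, that fell in each class, for all 16468 tested genes (top) and for 21 gene lists, with the number tested in brackets. Red and orange, which mark peaked and levelled rises, fill most of the bars for cholesterol synthesis, fatty acid synthesis and 2-cell-stage genes, and blue, which marks dips and levelled falls, those for glycolysis and hypoxia, LIF and STAT3 targets and the Notch pathway.

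Naive pluripotency genes mostly kept falling after day 2. Of 17 tested naive genes 15 fell by day 2 and 14 by day 4, and 9 were slowed falls, with 11 bends upward, 3 downward and a median of 0.66. Of 16 core genes 9 bent upward and 4 downward, against 24.9% and 28.4% of all tested genes, with a median of 0.35. Sox2 was measured at 719.6, 726 and 704 CPM at day 0, 181, 186 and 176 at day 2 and 125, 124 and 126 at day 4. No 2 days overlapped, and the step shrank from -1.98 ± 0.04 to -0.54 ± 0.05 (log2 ± SE). Nanog was at 279, 273 and 275 CPM at day 0, 82.1, 80.5 and 86.2 at day 2 and 23.1, 23.2 and 20.02 at day 4. Its steps were -1.73 ± 0.05 and -1.89 ± 0.07, and the bend of -0.16 was not called (adjusted p = 0.181), although it was with libraries scaled by total alone or thinned to 1 depth. Pou5f1 had means of 1468, 655 and 352 CPM and a small bend of 0.27 ± 0.08 (adjusted p = 0.00272), which was not called with libraries scaled by total alone (0.13, adjusted p = 0.117). Esrrb and Zfp42 slowed, with means of 307, 71.5 and 28.1 CPM and of 914, 252 and 147 CPM, while Klf4 had means of 322, 69.5 and 61.3 CPM and was called as levelled without day 2 replicate 3. Dppa3, a naive and germline gene, dipped instead, at 16.2, 16.5 and 15.8 CPM at day 0, 3.64, 2.97 and 3.46 at day 2 and 10.7, 10.2 and 9.09 at day 4, with day 4 between the other days and no overlap.

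Genes that copy DNA mostly fell by day 2 and then bent upward. Of 24 tested S phase genes 19 fell by day 2 and 2 rose. The median bend was 0.30. Of the 24, 16 bent upward, 1 bent downward and 9 were levelled falls, against 24.9%, 28.4% and 10.7% of all tested genes. Mcm3, a subunit of the replicative helicase, had means of 409, 263 and 271 CPM, and the second step of 0.04 ± 0.05 was not called (adjusted p = 0.485). Rrm2, which makes deoxynucleotides, slowed, with means of 473, 230.1 and 193 CPM. Tcl1, Anxa8, Jakmip1 and Padi2 were among the slowed falls named by the size of the bend, from 2.74 to 2.92. Crip2, Nectin4, Rin1, Krt42 and Ly6g6e were the levelled falls named by the same rule. Crip2 was called as dipped without day 4 replicate 1, and Nectin4 without day 4 replicate 2. The bend of Krt42 (4.50, adjusted p = 0.0457) was not called at an adjusted p under 0.01 or without day 0 replicates 2 or 3, day 2 replicates 2 or 3 or day 4 replicates 2 or 3. That of Ly6g6e (5.54, adjusted p = 0.00209) was not called without day 4 replicate 2 or with thinned counts. Both had no more than 0.11 CPM on average at day 4.

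Other levelled and slowed rises included signals, receptors and nuclear factors. Shh, the secreted Sonic hedgehog protein, had 1 count over the day 0 libraries and then 6.67, 6.19 and 6.18 CPM at day 2 and 6.87, 7.88 and 7.24 at day 4. Every day 4 library was above every day 2 library, but the second step of 0.21 ± 0.14 was not called (adjusted p = 0.233). Of 13 tested hedgehog pathway genes 9 bent downward and 2 upward, against 28.4% and 24.9% of all tested genes. Gli1, the standard target of the pathway, dipped instead, with means of 28.1, 4.82 and 10.1 CPM. Zbtb16, a zinc finger repressor, had means of 0.12, 5.53 and 6.65 CPM and was called as slowed without day 2 replicate 1. Gpr50, an orphan receptor, had means of 0.37, 58.5 and 100.5 CPM and slowed. Svep1, a large adhesion protein, had no count at day 0, was at least 59.9-fold higher at day 2 and slowed after it.

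Contractile genes of smooth muscle rose mainly after day 2. Of 13 tested members 11 rose in the second step and 1 fell, against 6 rises and 4 falls in the first. The bend was upward in 9 and downward in 2, with a median of 0.99. Of all tested genes 24.9% bent upward and 28.4% downward. Tagln (transgelin, GRCm38 chr9:45929619-45936058) was measured at 3.96, 3.68 and 3.8 CPM at day 0, 8.94, 10.4 and 7.46 at day 2 and 86.6, 84.6 and 98.4 at day 4. Each day was above the one before, and the step grew from 1.23 ± 0.16 to 3.31 ± 0.08 (log2 ± SE), a bend of 2.08 ± 0.23 (adjusted p = 5.7e-10). Myl9, a myosin light chain, had means of 1.57, 5.38 and 64.7 CPM, and Tpm1, a tropomyosin, 459, 549 and 1308 CPM. Cnn2, a calponin, began after day 2, at 12.1, 15.1 and 14.8 CPM at day 0, 12.2, 13.4 and 13.9 at day 2 and 53.1, 58.1 and 54.8 at day 4, with days 0 and 2 overlapping. Acta2, smooth muscle actin, named after its values had been seen, rose in both steps, with means of 0.080, 0.73 and 18.96 CPM, but had 2 counts over the day 0 libraries, and the bend of Acta2 was not called (adjusted p = 0.328), although limma-voom called it (2.14, adjusted p = 0.0382).

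The late and sped-up rises named by the size of the bend were genes of differing roles. They were taken only if libraries did not overlap between the days of each called step, so such a gap was fixed by the choice. Plagl1, an imprinted zinc finger factor, was measured at 22.7, 21.7 and 21.8 CPM at day 0, 25.7, 28.9 and 27.5 at day 2 and 346, 385 and 494 at day 4. Day 4 was far above both earlier days, with the widest spread among its libraries, and the second step was 3.89 ± 0.14 (log2 ± SE). It was called as sped-up rather than late without day 4 replicate 1 or 3. Its first step was 0.31 (adjusted p = 0.182). Ecm1, a secreted matrix protein, had means of 2.65, 1.84 and 58.7 CPM. It was called as dipped without day 0 replicate 3 or day 2 replicate 1 and with thinned counts. Foxc2, a factor of mesoderm, had means of 0.46, 0.36 and 11.2 CPM, and Ugt2b34, which conjugates lipids and steroids, 0.65, 0.86 and 19.7 CPM. Meg3, an imprinted noncoding RNA, sped up, with means of 85.04, 153 and 440.5 CPM. Fyb and St3gal1 were called as sped-up too, but as late with DESeq2, at an adjusted p under 0.01, or without day 0 replicate 1 or 3 or day 2 replicate 1 or 3 for Fyb, and without day 0 replicate 2 for St3gal1. Foxf1, a factor of visceral mesoderm, had means of 0.25, 0.86 and 12.6 CPM, and its bend of 2.14 (adjusted p = 0.0371) was not called with no filter, with thinned counts, at an adjusted p under 0.01, or without day 0 replicates 1 or 2 or day 2 replicate 1, while without day 0 replicate 3 its first step was not.

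Col3a1, a fibrillar collagen, had 0.45, 0.79 and 0.63 CPM at day 0, 0.38, 0.48 and 0.18 at day 2 and 9.1, 9.03 and 8.8 at day 4, so all day 4 libraries were above all earlier ones. Since fibroblasts are named as feeder cells, the other fibroblast markers stand beside it: at the 3 days Col1a1 had means of 5.89, 2.97 and 6.91 CPM, Col1a2 1.88, 12.9 and 14.8, Postn 0.28, 0.35 and 0.75, and Thy1 11.6, 1.58 and 0.81. Lum had no count at day 0, 1 at day 2 and 6 at day 4, and Dcn had 4, 0 and 5 counts. Of 19 tested genes in the fibroblast and matrix list 8 bent upward and 7 downward, against 24.9% and 28.4% of all tested genes. The summed level of the list ran from 1620 to 1644 CPM at day 0, 1148 to 1181 at day 2 and 683 to 712 at day 4. The part of feeder cells in the rise of Col3a1 or of the contractile genes was not tested.

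Falls that began or sped up after day 2 came from genes of differing roles. Those named by the size of the bend were taken only if libraries did not overlap between the days of each called step. For them such a gap was fixed by the choice. Spp1, the secreted protein osteopontin, was measured at 421, 373 and 398 CPM at day 0, 427, 452 and 379 at day 2 and 144, 138 and 157 at day 4. Days 0 and 2 overlapped and day 4 was lower in every library, with a second step of -1.52 ± 0.06. It was called as peaked without day 2 replicate 3, with no filter, or with libraries scaled by total alone. Apoe, an apolipoprotein, had no called first step and then fell, with means of 952, 950.1 and 471 CPM. Bmerb1 and Chst3 completed the late falls, with second steps of -2.18 ± 0.18 and -1.26 ± 0.20. Apoe and Chst3 were called as peaked with libraries scaled by total alone. Prph, an intermediate filament of neurons, sped up its fall, at 55.1, 56.8 and 60.4 CPM at day 0, 30.99, 32.7 and 31.6 at day 2 and 6.87, 7.59 and 6.81 at day 4, with no overlap between days. Foxh1, a partner of Nodal's SMADs, had means of 8.36, 5.92 and 1.77 CPM, and Cdx1, a posterior homeobox factor, 10.5, 6.93 and 1.69 CPM. With thinned counts Foxh1 was called as a late fall and Cdx1 as a steady one. Shisa8 and Pcyt1b were the other 2 named by the size of the bend, and Pcyt1b was called as a late fall with DESeq2, with no filter, with libraries scaled by total alone, at an adjusted p under 0.01, and without day 0 replicates 1 or 2 or day 2 replicate 1.

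The NuRD, CTCF and cohesin, and BAF lists had small median bends, as did the proteasome (-0.20), although many of their members had a called bend. Over all tested genes 28.4% bent downward and 24.9% upward. Of 15 tested NuRD subunits 6 bent downward and 3 upward, with a median bend of -0.10. Chd4, its ATPase, had means of 845, 893 and 881 CPM and no called bend (adjusted p = 0.287), and was called as a levelled rise with libraries scaled by total alone. Mbd3, another subunit, levelled off at 153, 205 and 199 CPM, and its paralog Mbd2 slowed at 22.8, 56.7 and 69.1 CPM. Of 19 tested BAF complex genes 10 bent downward and 5 upward, with a median of -0.32. Of 19 tested CTCF and cohesin genes 11 bent downward and 4 upward, with a median of -0.25. Ctcf, the insulator protein, was measured at 206, 189 and 198 CPM at day 0, 229, 236 and 222 at day 2 and 210.4, 211 and 205 at day 4, a peak of 0.21 ± 0.04 and -0.13 ± 0.04 (log2 ± SE) whose second step was not called without day 2 replicate 2.

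How far reversed genes had come back by day 4 was taken from day 4 against day 0. Of the 1300 peaked genes 544 were still above day 0, 208 were below it and 548 showed no called difference, and the median gene had given back 74.8% of its log2 rise. Of the 1103 dipped genes 436 were still below, 158 above and 509 without a called difference, and the median gene had regained 79.5% of its fall. Steps of 2-fold or more both ways were seen in 70 peaked and 142 dipped genes. Hmgcs1 and Scd1 ended below day 0 and Manf, Krt19 and Egr1 above it, while Stra8, Crabp2, Socs3 and Tdgf1 stayed on the side of the first step.

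Day 6, which took no part in the contrast, shows where the turned genes went next, although it is compared with the same day 4 libraries. Over all tested genes 23.6% rose from day 4 to day 6 and 19.3% fell. In dipped genes 38.5% rose and 24.1% fell, and in sped-up rises 52.7% rose and 21.8% fell. In sped-up falls 21.6% rose and 35.8% fell, and in slowed rises 38.9% rose and 21.5% fell. Peaked genes were closer to the background, with 21.0% and 26.6%. Levelled rises had 21.9% and 21.8%, and levelled falls 22.8% and 17.6%. Late rises had 33.5% and 25.6%, late falls 16.7% and 22.7%, and slowed falls 23.8% and 27.9%. Of genes described above, Tagln reached a mean of 162 CPM at day 6 and Plagl1 791, Lifr 101 and Socs3 25.5, while Stra8 dropped to 539.5 and Zscan4d to 26.7.

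**Figure D4:**
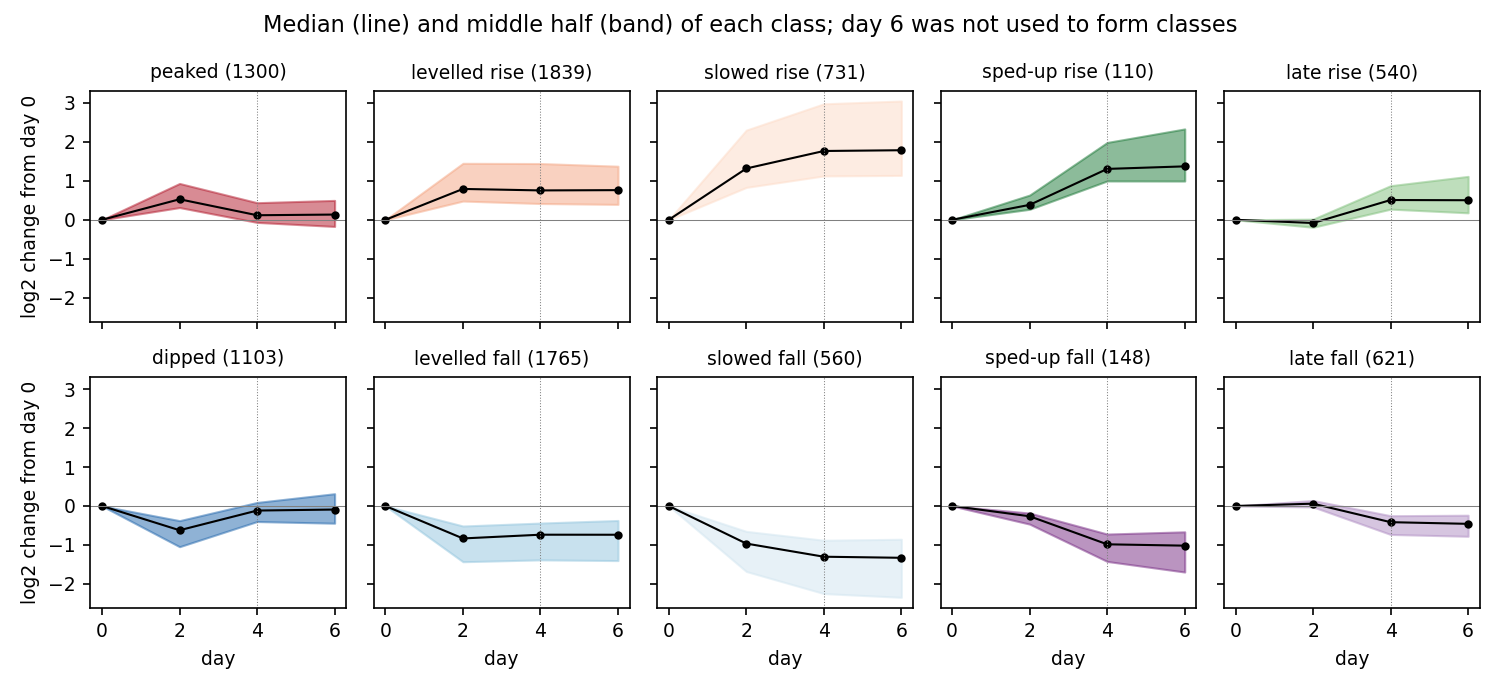
For each of 10 classes, with its number of genes in brackets, the line gives the median log2 change from day 0 (vertical axis) at days 0, 2, 4 and 6 (horizontal axis), and the band spans the 25th to 75th percentile of genes; the dotted line at day 4 marks the end of the days that formed the classes. Peaked and dipped genes come back toward 0 by day 4 and their medians move little to day 6.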

How the data were processed

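The submitters deposited 1 table of raw counts per gene for 12 libraries, made by the authors with FastQC 0.11.7, HISAT2 2.1.0 and featureCounts 2.0.1 on mm10, per the submitters' processing notes, which also name DESeq2 without a version. Their settings, use of strand and handling of reads shared by near-identical genes are not given in the sources used here. Symbols and gene types are those of the deposited table, positions came from GENCODE M21 (GRCm38) by its Ensembl identifiers, and promoter sequences from RefSeq (GRCm38.p6).

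Genes were kept by edgeR's filter on low counts by day and scaled by TMM. All 12 libraries entered 1 quasi-likelihood fit (edgeR 4.0.16, limma 3.58.1, R 4.3.3) with 1 coefficient per day, and each step, the bend and day 6 against day 4 were tested two-sided with Benjamini-Hochberg adjustment over 16468 genes and a threshold of 0.05. Standard errors were taken from the log2 fold change and its F statistic. The code was tested on simulated counts, where bends of 0.5, 1, 2 and 4 were called in 32%, 70%, 92% and 98% of 50 genes each. Figures were drawn with matplotlib 3.10.9 in Python 3.11.15.

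Genes named for a class reached 5 CPM on the highest day, and libraries did not overlap between the days of each called step. Predicted symbols were passed over there. The picks were 8 each for peaked and dipped genes by the smaller step and 5 for each other class by the bend. Without these limits, up to 4 genes per list were taken by the p of the bend. Further genes were kept whatever their values (such as Pou5f1, Cyp26a1, Ctcf). Some of these are not reported here. Crabp2, Nupr1, Aars and Acta2 were added after their values were seen. The members and lists were chosen with earlier results of these data known.

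The fit's common dispersion corresponds to a coefficient of variation of 0.0415 for a gene between libraries of a day, beyond counting error, and count intervals and floors cover counting error only. Libraries with the same replicate number did not deviate together (correlations from -0.02 to 0.03 over 9 pairs of libraries), so the numbers were not treated as pairs. Alternatives were other scalings, filters and tools (DESeq2 1.42.0, limma-voom), thinned counts, a stricter threshold, a replicate block, and leaving out each library.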

Additional observations from a re-analysis of the deposited data

How the results depend on the processing

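Counts of upward and downward bends stayed within 1.5 times their values under every alternative run, and so did those of levelled and late genes. A stable count can hide a change of members. With libraries scaled by total alone, 45.9% of late falls, 52.2% of late rises and 44.6% of sped-up falls kept their class, against 99.9% of peaked genes. With DESeq2, 61.7% of late falls, 73.1% of late rises and 71.4% of peaked genes kept theirs. With an adjusted p under 0.01, slowed rises numbered 458, slowed falls 340, sped-up rises 60 and sped-up falls 72. With DESeq2, sped-up falls numbered 88. With both steps and the bend required to be at least 0.32 on the log2 scale, a limit chosen after seeing the data, peaked genes numbered 644, dipped genes 685, slowed rises 444, slowed falls 289, sped-up rises 64 and sped-up falls 43. The cause was not tested, beyond the fewer genes that a stricter limit lets through. Leaving out 1 library at a time gave 3632 to 3959 upward and 4153 to 4580 downward bends, 1657 to 1714 and 1737 to 1817 of 2-fold size, 1167 to 1225 peaked, 973 to 1088 dipped, 1723 to 1974 levelled rises, 1647 to 1829 levelled falls, 593 to 684 slowed rises, 442 to 546 slowed falls, 78 to 110 sped-up rises, 102 to 145 sped-up falls, 471 to 572 late rises and 550 to 673 late falls. The replicate block gave 4079 upward and 4663 downward bends. With no filter the split was 3621 upward and 5145 downward. Of 6046 checks of a named gene's bend under an alternative, 6013 gave the same call, 29 lost it, 4 gained it and none reversed. Of 1275 checks of a list's median, 46 moved it by more than the spread between replicates and 11 changed its sign. Those 11 touched the lists of Nodal, BMP, primitive streak, epithelial, nuclear oxidative phosphorylation and Polycomb genes, whose medians are not reported here. Among named genes, Cdx1, Foxf1, Hist1h1d and Ly6g6e lost the call of their bend with counts thinned to the smallest library, where 3408 upward and 3919 downward bends were called.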

Other observations

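Some further gene lists are described here, where 53.3% of all tested genes had a called bend. Axon guidance genes, which steer growing axons and migrating cells, rose after day 2 in 16 of 22 tested members and fell in 1, after 8 rises and 8 falls before it, and 11 bent upward and 4 downward. The netrin Ntn1 had means of 18.5, 3.44 and 8.9 CPM at days 0, 2 and 4 and the semaphorin co-receptor Nrp2 47.7, 5.63 and 11.8 CPM, and both dipped. The semaphorin receptor Plxna2 instead rose early and slowed, at 2.18, 38.2 and 48.1 CPM. Lysosome genes rose in the first step in 19 of 23 tested members and in the second in 17, and fell in 3 and in none. Of the 23, 10 bent downward and 3 upward, a share near that of all genes, and 8 were steady rises. The protease Ctsc had means of 8.11, 42.3 and 75.3 CPM and the cholesterol exporter Npc1 29.4, 69.8 and 91.8 CPM, and both slowed, while Tfeb, the factor that switches on lysosome genes, levelled off after a fall, at 22.96, 6.36 and 6.25 CPM.

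Genes of ribosome building, listed with the MYC factors, fell in the first step in 19 of 23 tested members and rose in 1, and then 16 bent upward and 3 downward. The nucleolar protein Nolc1 levelled off at 739, 371 and 359 CPM. The methyltransferase Fbl dipped and came back, at 341, 228 and 332 CPM. Dkc1, which modifies ribosomal RNA, took the opposite course and peaked, at 215, 319.5 and 190.2 CPM. Targets of the p53 tumour suppressor fell first in 19 of 23 tested members and rose in 3, and 15 bent upward and 4 downward. The cell cycle inhibitor Cdkn1a slowed at 109, 29.7 and 23.9 CPM, the death gene Pmaip1 levelled off at 126, 28.1 and 27.1 CPM, and Bax, another death gene, dipped, at 169, 95.6 and 126 CPM. The median bend was 0.57, -0.22, 0.41 and 0.53 for these 4 lists, in the order given, against -0.03 over all tested genes.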
